A study of Mus musculus with 3 samples.

Results

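The genes described here encode the heat shock chaperones of the cytosol, nucleus and mitochondria, with their cofactors. They were chosen by name, as the HSP70, HSP90, small heat shock protein, DnaJ and chaperonin families outside the endoplasmic reticulum (ER). The rule used no measured value, but the members were chosen with earlier results of these data known. Of 40 named genes, 39 have a row among the 20677 features of the table, and Hspb8 has none. Their RNA was profiled in mast cells sorted from the skin 1 week after birth, from mice of mixed C57BL/6xCD1xFVB background. All mice carried a Cre recombinase switched on by a pulse of 4'OHT (4-hydroxytamoxifen) and an EYFP reporter that marks the descendants of the cells in which Cre was active. In the early EMP (erythro-myeloid progenitor) library Cre was driven by Csf1r and pulsed at embryonic day 8.5. In the late EMP library Cre was driven by Runx1 and pulsed at day 8.5, and in the fetal HSC (haematopoietic stem cell) library it was driven by Runx1 and pulsed at day 9.5.

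There is a single library of each origin, so differences below have no replicates behind them and no p-values. How many mice went into a library is not stated. Where 3 levels stand together, they follow the order early EMP, late EMP, fetal HSC. The Cre driver changes together with origin between the early EMP library and the others, and these cannot be told apart. Sex-linked RNA also differed: Xist was at 25.6, 0.53 and 52.0 FPKM (fragments scaled to transcript length and library depth), and the Y-linked Ddx3y at 20.7, 38.5 and 0.32. All 9 mast cell markers, among them Kit, Fcer1a and Cpa3, lay within 2-fold in all 3 comparisons. Depth is not stated, but the steps between low values imply about 15200000, 15700000 and 16900000 fragments.

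Heat shock chaperones bind unfolded stretches of other proteins and release them in cycles driven by ATP. HSP70 is loaded with clients by DnaJ proteins, which carry the J domain that triggers its ATPase, and is reset by nucleotide exchange factors such as the HSP110 and BAG proteins. HSP90 receives part-folded clients such as kinases and steroid receptors from HSP70 through the adaptor Stip1, the ring-shaped TRiC chaperonin folds actin and tubulin, and HSP60 with its lid HSP10 works in mitochondria. Heat shock factor 1 (Hsf1) induces many of these genes by binding repeats of the bases GAA in alternating orientation, and it is controlled mostly at the level of its protein. Mast cells make and store large amounts of protein in granules.

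Members summed to 2809 FPKM in the early EMP library, 4289 in late EMP and 3945 in fetal HSC. These sums were 0.440%, 0.698% and 0.616% of all FPKM of each library. Hspa8 and Dnajb1, an HSP70 and its DnaJ partner, supplied 35.4%, 49.4% and 45.6% of the members' sum. Without them, the other members summed to 1814, 2171 and 2146 FPKM. Most of the gap between the early EMP library and the others in summed chaperone RNA was thus carried by this HSP70 and DnaJ pair. In bulk RNA, a change in the make-up of the sorted cells and a change in RNA per cell cannot be told apart.

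**Figure D1:**
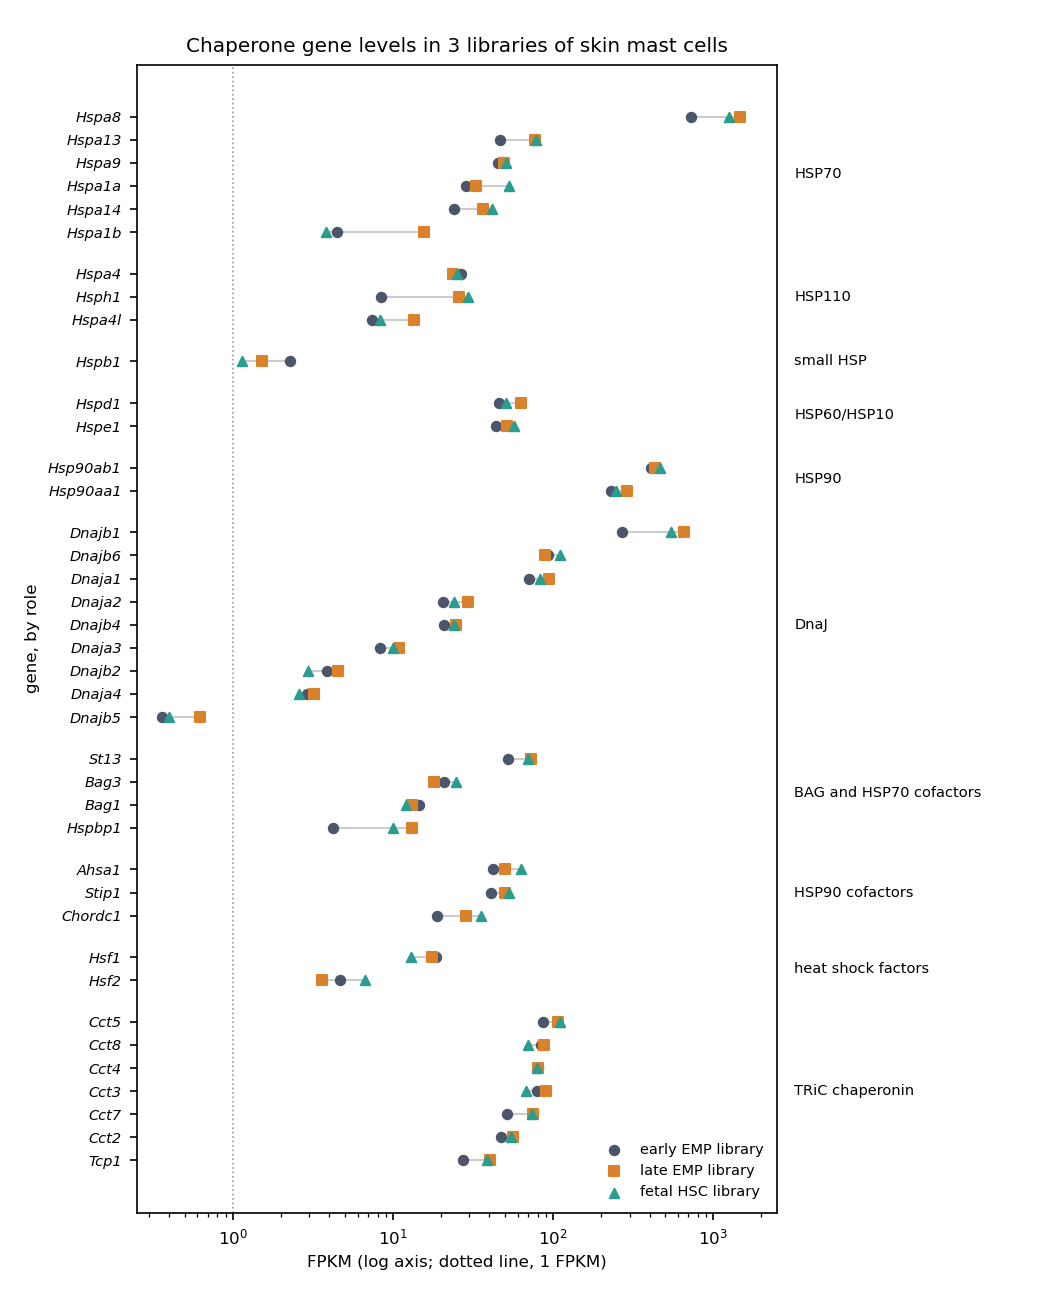
Level of each chaperone gene (FPKM, log axis) in the early EMP (circle), late EMP (square) and fetal HSC (triangle) libraries, grouped by role; each point is 1 library. Hspa8, at 724 to 1460 FPKM, is the most abundant, and Dnajb5 lies below 1 FPKM in every library.

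Fold changes are log2 ratios of FPKM + 1 and understate the change of low genes. They are given for features at 1 FPKM or more in at least 1 library, which 38 members and 14412 features met. The first comparison, late EMP over early EMP, sets the later progenitor wave against the earlier one. Here 5 of 38 members (13.2%) stood 2-fold or more higher and none lower, against 8.65% of all features higher and 10.8% lower. Every member has a symbol, and among genes with a symbol, without the unnamed regions of the table, 7.55% were higher and 4.24% lower. Their median was 0.27 on the log2 scale, against 0.00 for all features and 0.06 for genes with a symbol. Fetal HSC over early EMP gave 3 members (7.89%) higher and none lower, against a background of 8.19% higher and 17.8% lower, with a median of 0.24 against -0.11. Among genes with a symbol the shares were 8.08% and 8.6%, so the lower share rests largely on the unnamed regions. The median of genes with a symbol was -0.03. With a pseudocount of 5 FPKM, 1 member, Hsph1, was higher in place of 3. Fetal HSC over late EMP gave none higher and 1 lower (2.63%), against 3.46% and 8.26% of all features, with a median of -0.04 against -0.10. Among genes with a symbol the shares were 2.73% and 5.36%, with a median of -0.08. The share of members past 2-fold was near the background or below it in the last comparisons. Within 1.5-fold were 31, 29 and 34 of 38 members, in the order of the comparisons. The same share was not counted over all features, so these counts do not set the members apart. Lower and upper quartiles of all features were -0.46 and 0.41, -0.69 and 0.32, and -0.46 and 0.19 on the log2 scale. The first and the second comparison share the early EMP library, so their values are not independent.

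**Figure D2:**
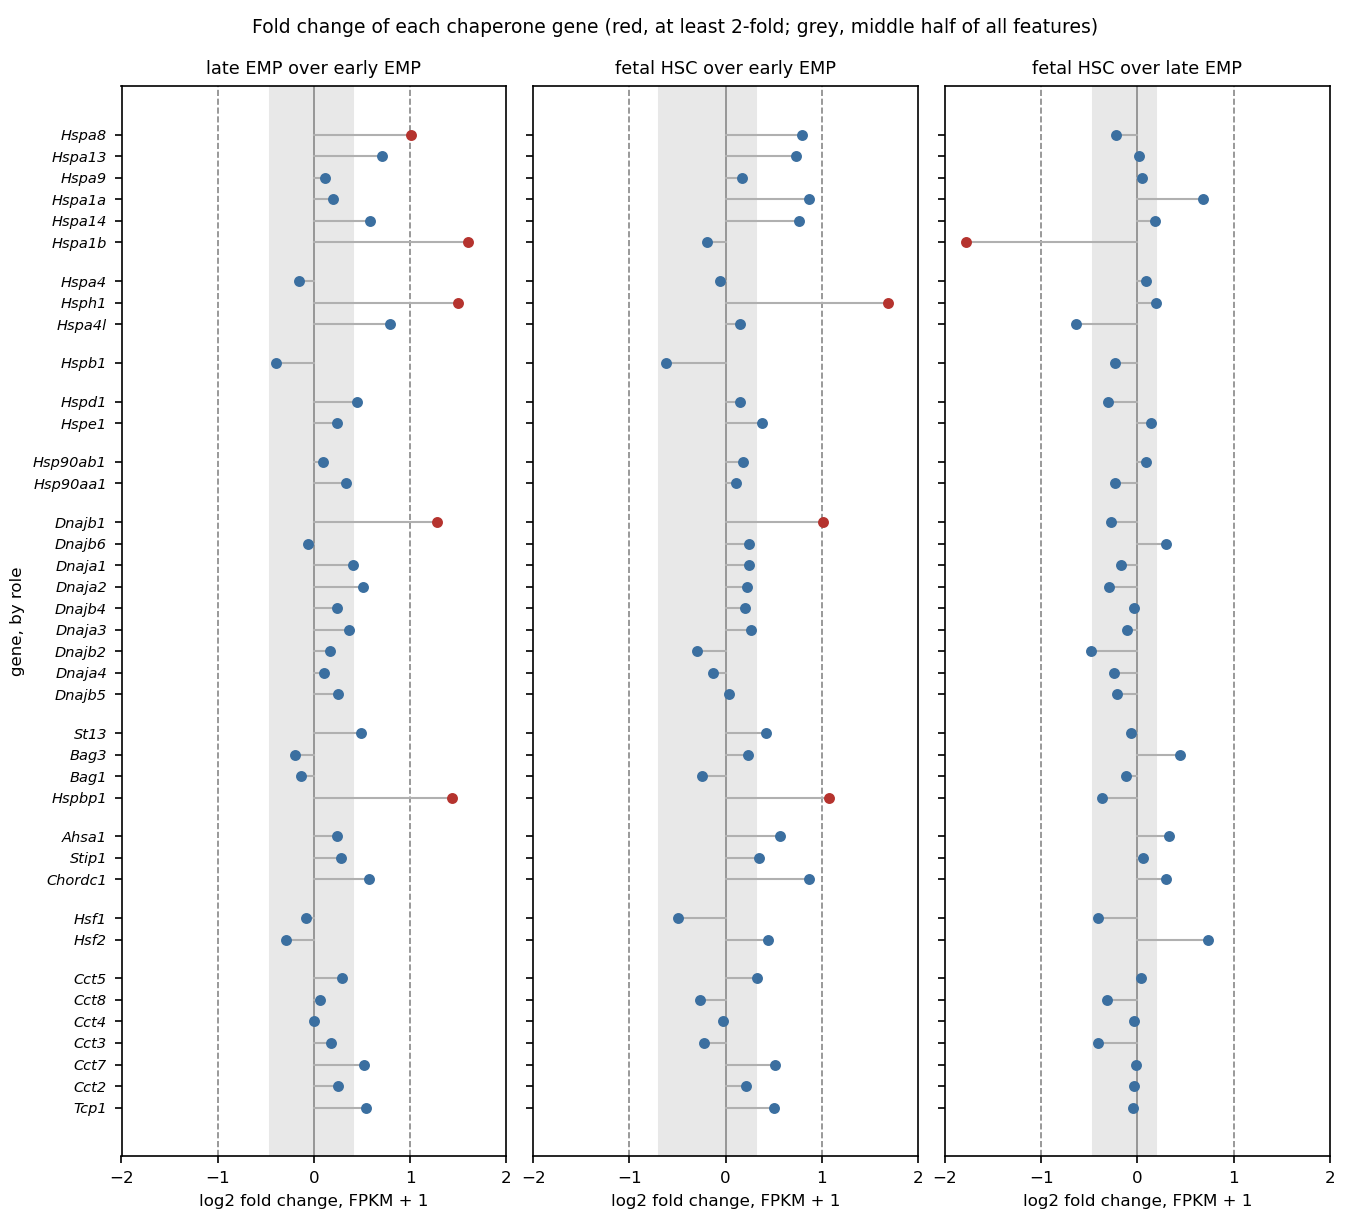
Log2 fold change of each chaperone gene in the 3 comparisons, by role; dashed lines mark 2-fold, red points lie at or past it, and the grey band runs from the lower to the upper quartile of all features. Hsph1, Hspbp1 and Dnajb1 lie past 2-fold in both comparisons with the early EMP library, and Hspb1 is the lowest of the members there.

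The HSP70 proteins themselves held the most abundant member. Hspa8, the constitutive HSP70 that folds new proteins and strips clathrin from vesicles (chromosome 9, 40801276 to 40805202, GRCm38), stood at 724, 1460 and 1254 FPKM. It ranked 80th, 39th and 40th of all features. The early EMP library was the low one, and the other libraries lay near each other, with log2 fold changes of 1.01 for late over early EMP, 0.79 for fetal HSC over early EMP and -0.22 for fetal HSC over late EMP. Counting error at the implied depth gives the late over early EMP ratio of 2.02 a 95% exact interval of 1.99 to 2.05, which covers counting only, not variation between animals or preparations. With median-of-ratios scaling, or rescaling without the 50 most abundant genes, the first of these values was 0.96, under 2-fold.

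Hspa1a and Hspa1b encode the heat-inducible HSP70 and are near-identical neighbours on chromosome 17 (34969359 to 34972156 and 34956429 to 34959238), 10120 bases apart. Hspa1a was at 28.4, 32.8 and 53.0 FPKM, and Hspa1b at 4.46, 15.5 and 3.80. Hspa1b, unlike Hspa1a, was at least 2-fold higher in late than in early EMP (log2 1.60) and lower in fetal HSC than in late EMP (-1.78), the only member past 2-fold in that last comparison. Of the 50-base stretches of the Hspa1b transcript, 62.3% also occur in another gene that has a row in the table, Hspa1a foremost. Reads that lie wholly within such stretches cannot be traced to 1 gene by their sequence, so their division between the genes is uncertain. The share of Hspa1b in the pair's FPKM was 13.6%, 32.2% and 6.70%. Summed, the pair was at 32.9, 48.3 and 56.8 FPKM, with the early EMP library lowest and log2 fold changes of 0.54, 0.77 and 0.23, all under 2-fold. Counting the pair as 1 gene, a step added after the data were seen, left 4 members higher in late over early EMP, 3 in fetal HSC over early EMP, and none past 2-fold in fetal HSC over late EMP.

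The likeness of the pair extends to the promoters, which are shown for that reason. The stretches below are the 130 bases just upstream of each RefSeq start on the minus strand of GRCm38.p6, at chr17:34972157-34972286 and chr17:34959239-34959368. Capitals mark the GAANNTTC match, 2 facing GAA units as in a heat shock element.
Hspa1a: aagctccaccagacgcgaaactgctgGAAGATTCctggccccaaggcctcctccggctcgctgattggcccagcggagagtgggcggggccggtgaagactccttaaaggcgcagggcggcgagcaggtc
Hspa1b: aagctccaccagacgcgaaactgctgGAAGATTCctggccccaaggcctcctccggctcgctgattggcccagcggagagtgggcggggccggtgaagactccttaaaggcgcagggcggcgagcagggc
The stretches are identical at 129 of 130 positions, and the match lies at positions -104 to -97 from each start.

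The other HSP70 relatives stayed under 2-fold in every comparison. Hspa9, the HSP70 of the mitochondrial matrix, was at 44.95, 49.0 and 50.6 FPKM. Hspa14, a ribosome-associated HSP70, was at 24.1, 36.5 and 41.6 FPKM, and Hspa13, known from the microsomal fraction although the group was drawn outside the ER, at 46.6, 76.9 and 77.9. In the comparisons with early EMP the latter 2 lay between 0.58 and 0.76 on the log2 scale, and the mitochondrial Hspa9 between 0.12 and 0.17.

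**Figure D3:**
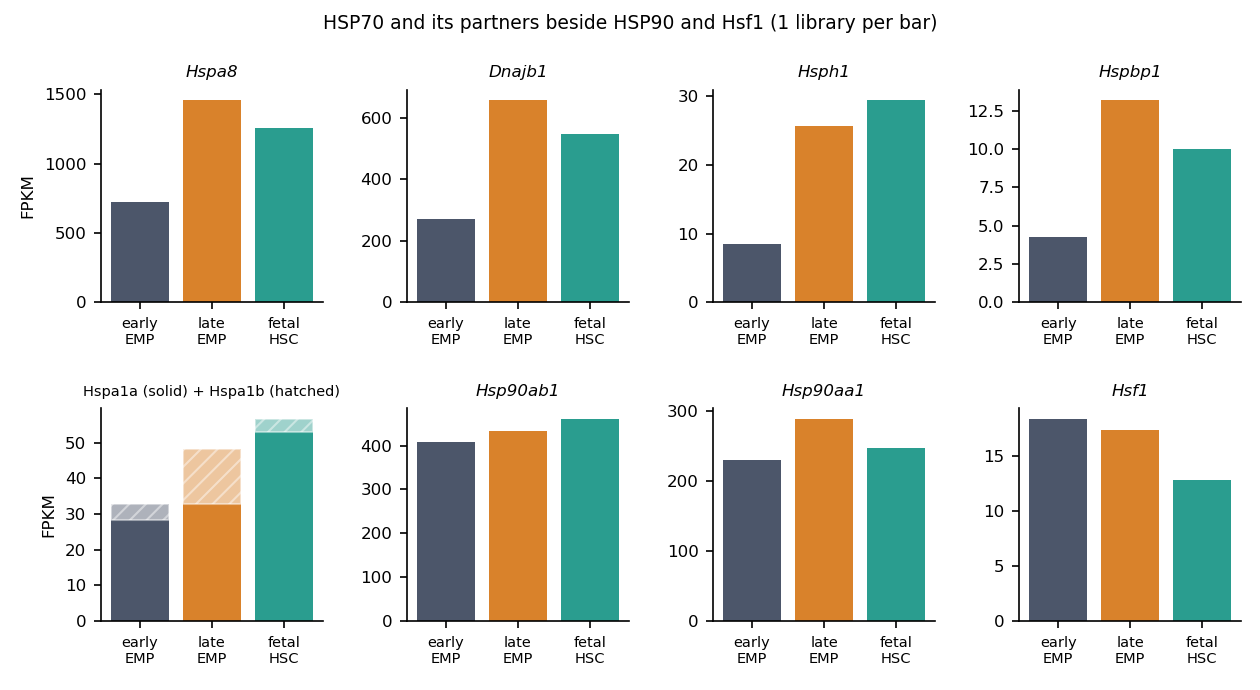
FPKM of the HSP70 genes and their partners beside the HSP90 genes and Hsf1, 1 bar per library, each panel with its own axis from 0. Hspa8, Dnajb1, Hsph1 and Hspbp1 are lowest in the early EMP library, and the summed Hspa1a and Hspa1b bars stand at 32.9, 48.3 and 56.8 FPKM.

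Of the 5 members past 2-fold in late over early EMP, 3 were partners that load or reset HSP70. Dnajb1, the main inducible J-domain partner of HSP70 (chromosome 8, 83608175 to 83612653), was at 271, 658 and 545 FPKM, with early EMP the low library. Its log2 fold changes over early EMP were 1.28 and 1.01, and the second was 0.98 when the libraries were rescaled without the 50 most abundant genes and 0.996 with a pseudocount of 5 FPKM. Hsph1, an HSP110 that exchanges the nucleotide of HSP70 and helps dissolve aggregates (chromosome 5, 149616843 to 149636498), was at 8.44, 25.7 and 29.5 FPKM. The early EMP library again was the low one, with log2 fold changes of 1.5 and 1.69 over it. Hspbp1, another nucleotide exchange factor (chromosome 7, 4660515 to 4685188), was at 4.24, 13.2 and 9.97 FPKM, with log2 fold changes of 1.44 and 1.07, or 0.98 and 0.70 with a pseudocount of 5 FPKM. The Hsph1 and Hspbp1 transcripts share no 50-base stretch with another annotated gene, and those of Dnajb1 0.4%. The rows of Hsph1 and Hspbp1 each include an unnamed transcript model beside the RefSeq one, and how that model affects the effective length was not tested.

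These genes did not stand in fixed proportion to Hspa8. Within a library the ratio of 2 genes does not depend on scaling. Hspa8 stood at 2.67, 2.22 and 2.30 times Dnajb1. It stood at 85.8, 56.8 and 42.5 times Hsph1 and at 171, 111 and 126 times Hspbp1. Per Hspa8 transcript, the early EMP library thus had the least of each of these partners. They were taken because they passed 2-fold over early EMP, while Hspa8 had log2 fold changes of 1.01 and 0.79. This order therefore largely follows from that choice. It does not hold for all HSP70 partners, since Dnaja1, at 0.41 and 0.24, and St13, at 0.49 and 0.42, rose less than Hspa8.

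The remaining HSP110 and DnaJ members stayed under 2-fold. Among the HSP110 genes, Hspa4 was at 26.4, 23.7 and 25.2 FPKM, and Hspa4l at 7.41, 13.5 and 8.30, highest in the late EMP library. Of the 9 DnaJ genes, Dnajb6, which keeps aggregation-prone proteins soluble, was at 93.2, 89.2 and 110 FPKM and Dnaja1, a farnesylated partner of HSP70, at 70.5, 93.9 and 83.3. Dnajb5 stayed below 1 FPKM, at 0.36, 0.62 and 0.40, and did not pass the filter on low values. Between fetal HSC and late EMP, 7 of 8 measured DnaJ genes lay below 0 on the log2 scale, with a median of -0.21 against -0.10 for all features, of which 38.4% lay above 0. Among 24 measured DnaJ genes outside the ER that are not members, 13 lay below 0, with a median of -0.09.

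Besides Hspbp1, the BAG proteins and HSP70 cofactors also stayed under 2-fold. St13, which stabilises the complex of HSP70 with its client, was at 51.9, 73.2 and 69.7 FPKM. Bag3, which links HSP70 to autophagy and is a strong heat shock target, was at 20.9, 18 and 24.8 FPKM, and Bag1, which links it to the proteasome, at 14.4, 13.1 and 12.0. The small heat shock protein Hspb1, which holds unfolded proteins without ATP, was the lowest member that passed the filter, at 2.28, 1.51 and 1.14 FPKM. This corresponds to only 27, 18 and 15 implied fragments, and the 95% counting interval of the late over early EMP ratio of 0.662 ran from 0.344 to 1.25. Of its 50-base stretches, 60.4% also occur in another annotated gene, such as Hsp25-ps1.

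The HSP90 genes differed little from library to library. Hsp90ab1, the constitutive cytosolic HSP90, was at 408, 433 and 462 FPKM. Hsp90aa1, its heat-inducible counterpart, was at 229, 289 and 247 FPKM. All 6 log2 fold changes of the pair lay between -0.23 and 0.33. Hspa8 accordingly stood at 1.78 times Hsp90ab1 in the early EMP library and at 3.38 and 2.72 times in the late EMP and fetal HSC libraries. Among the HSP90 cofactors, Stip1, the adaptor to HSP70, was at 41.2, 50.3 and 52.6 FPKM, and Ahsa1, which stimulates the ATPase of HSP90, at 42.1, 49.99 and 63.2. Chordc1, a zinc-binding co-chaperone of HSP90, was at 18.9, 28.5 and 35.4 FPKM, with log2 fold changes of 0.57 and 0.87 over early EMP and 0.30 between the others. These cofactors were highest in the fetal HSC library, at under 2-fold. For Stip1 the fetal HSC over late EMP ratio of 1.05 had a 95% counting interval of 0.977 to 1.12, which includes 1. Of 21 measured HSP90 cofactors outside the members, 14 lay below 0 in that comparison, with a median of -0.12.

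The cytosolic chaperonin lay near the members as a whole. The 7 TRiC subunits among the members ranged from 27.2 to 86.9, from 40.2 to 106 and from 38.9 to 110 FPKM, with Tcp1 lowest and Cct5 highest in each. None passed 2-fold in any comparison. In late over early EMP 8.65% of all features were higher and 10.8% lower, so 7 genes are too few for this count to set TRiC apart. The medians of the subunits' log2 fold changes were 0.25, 0.21 and -0.04, against 0.27, 0.24 and -0.04 for all members. For late over early EMP they ran from 0.00 for Cct4, at 80.9 and 80.9 FPKM, to 0.54 for Tcp1, at 40.2 against 27.2. For fetal HSC over early EMP they ran from -0.27 for Cct8, at 69.7 FPKM against 84.2, to 0.51 for Cct7, at 74.1 against 51.6. For fetal HSC over late EMP they ran from -0.41 for Cct3, at 67.7 FPKM against 90.0, to 0.04 for Cct5, at 110 against 106. Although TRiC is built of equal numbers of its subunits, the highest member stood at 3.19, 2.65 and 2.82 times the lowest in the 3 libraries. Of the 50-base stretches of Tcp1, 21.2% occur in another gene, mainly Acat3 and Acat2.

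Mitochondrial HSP60 and HSP10 are encoded head to head on chromosome 1, where the transcribed ranges of Hspd1 (55077833 to 55088243) and Hspe1 (55088148 to 55091317) share 96 bases. Hspd1 was at 45.9, 63.3 and 50.9 FPKM, and Hspe1 at 43.8, 51.8 and 57.1. Hspd1 was highest in the late EMP library and Hspe1 in the fetal HSC library, and the ratio of Hspd1 to Hspe1 was 1.05, 1.22 and 0.893. The fetal HSC over late EMP ratio of Hspe1, 1.1, had a 95% counting interval of 0.977 to 1.24, which includes 1. Of the 50-base stretches of each transcript, 44.8% also occur in another annotated gene.

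The factors that control the heat shock response did not have the order of levels seen for Hspa8 and Dnajb1. Hsf1 was at 18.4, 17.4 and 12.9 FPKM, lowest in the fetal HSC library at log2 -0.49 against early EMP. Hsf2, a related factor that can pair with Hsf1, was at 4.64, 3.62 and 6.64 FPKM, lowest in the late EMP library and highest in the fetal HSC library. On a list of 17 heat-inducible members, drawn up with earlier results of these data known, 4 of the 16 measured stood 2-fold or more higher in late over early EMP and none lower, a share of 25% against 8.65% of all features, with a median of 0.37. These were Hspa8, which cells also make without heat and which was at 0.96 under 2 of the scalings, Hspa1b, whose call ends when the pair is summed, Dnajb1 and Hsph1. The 22 other measured members had 1 higher (4.55%) and a median of 0.18. A list drawn up with results known cannot tell whether heat-inducible members differ from the others as a group. For fetal HSC over early EMP the medians of the heat-inducible and the other members were 0.29 and 0.22. There 2 (12.5%) and 1 (4.55%) were higher, against 8.19% of all features. Of the 16, 14 lay above 0 in each comparison with early EMP, against 49.5% and 41.8% of all features. Bag3 and Hspb1 lay below 0 in late over early EMP, at -0.20 and -0.39. In fetal HSC over early EMP, Hspa1b and Hspb1 lay below 0, at -0.19 and -0.62, and Bag3 was at 0.23. Hspb1 rests on few implied fragments. Whether a heat shock response differed between the libraries was not tested.

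Promoter windows of 250 bases before and 50 bases after the start were found in RefSeq for 32 of the 40 named genes. Hspa8, Hsp90aa1 and Hsp90ab1 are not among them. Hspb8, which has no measured level, is among them and holds only the shorter match described below. Both strands were searched for 3 GAA units in alternating orientation, GAANNTTCNNGAA or its reverse complement TTCNNGAANNTTC. At least 1 window held it in 5 of the 32 members (15.6%), against 179 of 27025 genes (0.662%). The shorter match of 2 units, GAANNTTC or TTCNNGAA, which every longer match contains, was in 15 of 32 members (46.9%) and in 17.0% of all genes. The 5 members are shown because they carry the longest form of the element, with the matches in capitals, on GRCm38.p6. Hspd1 is not repeated, since its match is the same stretch of the promoter it shares with Hspe1.
Hsph1, chr5:149636287-149636316, minus strand: agtaaaatgctgcagaTTCTGGAAAGTTCt
Hspe1, chr1:55088053-55088082, plus strand: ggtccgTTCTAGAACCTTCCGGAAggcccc
Chordc1, chr9:18292260-18292289, plus strand: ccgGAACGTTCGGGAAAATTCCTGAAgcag
Dnajb6, chr5:29735844-29735873, plus strand: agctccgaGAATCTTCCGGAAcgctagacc
All 4 stretches lie in an annotated untranslated exon in GENCODE, that of Hspe1 in one of Hspd1. The log2 fold changes over early EMP of the genes with this match were 1.5 and 1.69 for Hsph1, 0.57 and 0.87 for Chordc1, 0.45 and 0.15 for Hspd1, 0.24 and 0.38 for Hspe1, and -0.06 and 0.24 for Dnajb6. Hsph1 was past 2-fold and the others were not. Dnajb1 and Hspbp1, also past 2-fold, have no match of either length in their windows, which says only that these letters are not there.

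Many chaperone genes have processed pseudogenes, copies of their RNA inserted elsewhere in the genome, so the share of each transcript's 50-base stretches that occurs in another GENCODE gene was counted. The share was highest for Hspa8, at 74.8%, but none of the genes it shares them with has a named row in the table. Hsp90aa1 had 58.5%, also with no named row for a gene sharing them. Where a partner has its own row the value can shift between genes: besides Hspa1a and Hspa1b this applied most to Dnaja4 (51.9%, shared with Wdr61) and Tcp1, and to a lesser degree to other members, among them Dnaja1, Hspe1, Cct7, Cct8, Stip1 and Dnajb6. The 4 members past 2-fold other than Hspa1b share at most 0.3% with a gene of the table.

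**Figure D4:**
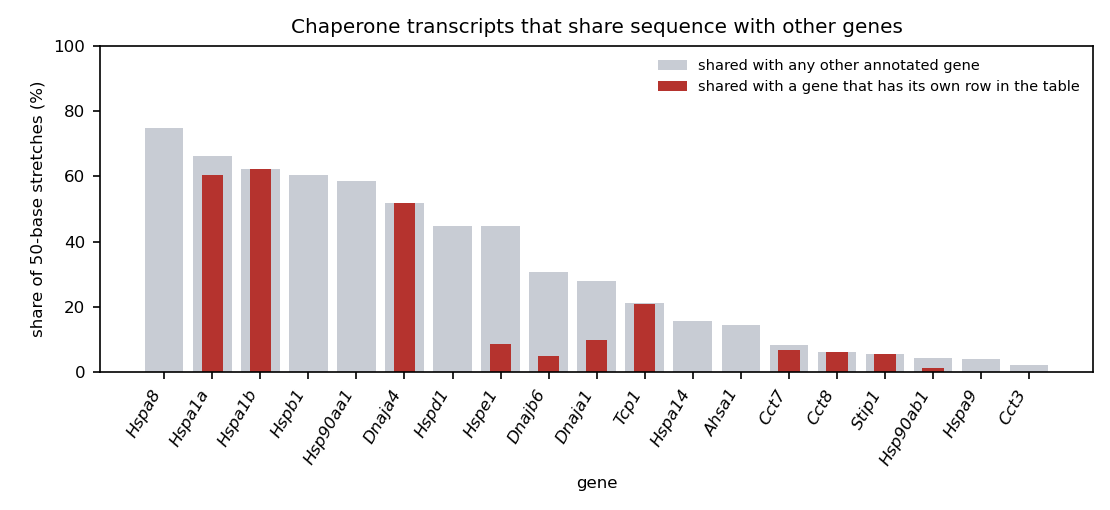
Share of the 50-base stretches of each chaperone transcript that also occurs in another annotated gene (grey) or in a gene with its own row in the table (red), for members with 1% or more. Hspa8 has the highest grey bar, 74.8%, with no red bar, while Hspa1a and Hspa1b have red bars of 60.3% and 62.3%.

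Other genes of the folding machinery, from lists of family members, were read beside the members. Of 21 measured HSP90 cofactors outside the members, 4 stood 2-fold or more higher in late over early EMP and none lower, a share of 19% against 8.65% of all features, with a median of 0.38. They included Fkbp4 (16.8, 36.2 and 28.4 FPKM) and Ppid (8.33, 25.7 and 17.5), prolyl isomerases of the HSP90 complexes that hold steroid receptors. Ruvbl1, an ATPase that builds large complexes with HSP90, was at 18.9, 38.9 and 36.0 FPKM. In fetal HSC over early EMP 2 were higher, among them Ptges3, the p23 protein that closes the HSP90 clamp (32 against 66.7 FPKM), and the median was 0.35. That share of 9.52% is near the 8.19% of all features. Several of these genes sit close to the 2-fold line, such as Ruvbl1 at 1.01 and Fkbp4 at 1.07 in late over early EMP and Ptges3 at 1.04 in fetal HSC over early EMP.

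The other DnaJ genes had no such lean, with 1 of 24 higher, none lower and a median of -0.10 in late over early EMP, and 1 higher, 1 lower and -0.24 in fetal HSC over early EMP. The higher one was Dnajc9 each time, a chaperone of histones, at 10.7, 33.5 and 34.5 FPKM. Most of the 24 lay below 0, with 7 above it in late over early EMP and 8 in fetal HSC over early EMP. Partners of the chaperonin had medians of 0.00 and 0.03, although Cct6a, the subunit of TRiC outside the members, was at 34.9, 64.0 and 41.4 FPKM. Other BAG proteins and HSP70 cofactors had medians of -0.03 and -0.18. Mitochondrial folding factors and proteases had medians of 0.22 and 0.15, with Trap1, the mitochondrial HSP90, at 17.7, 28.9 and 37.4 FPKM. None of 31 proteasome subunits passed 2-fold, with medians of -0.08 and 0.00. The ER chaperones had 17 of 17 genes above 0 in late over early EMP and 16 of 17 in fetal HSC over early EMP, with medians of 0.72 and 0.56, and Hspa5, the HSP70 of the ER, was at 275, 507 and 671 FPKM. Of the 38 measured members of the chaperone group, 30 and 28 lay above 0. Of all features, 49.5% and 41.8% lay above 0, and of genes with a symbol 54.4% and 47.3%. Hspa8 stood at 2.64, 2.88 and 1.87 times Hspa5.

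**Figure D5:**
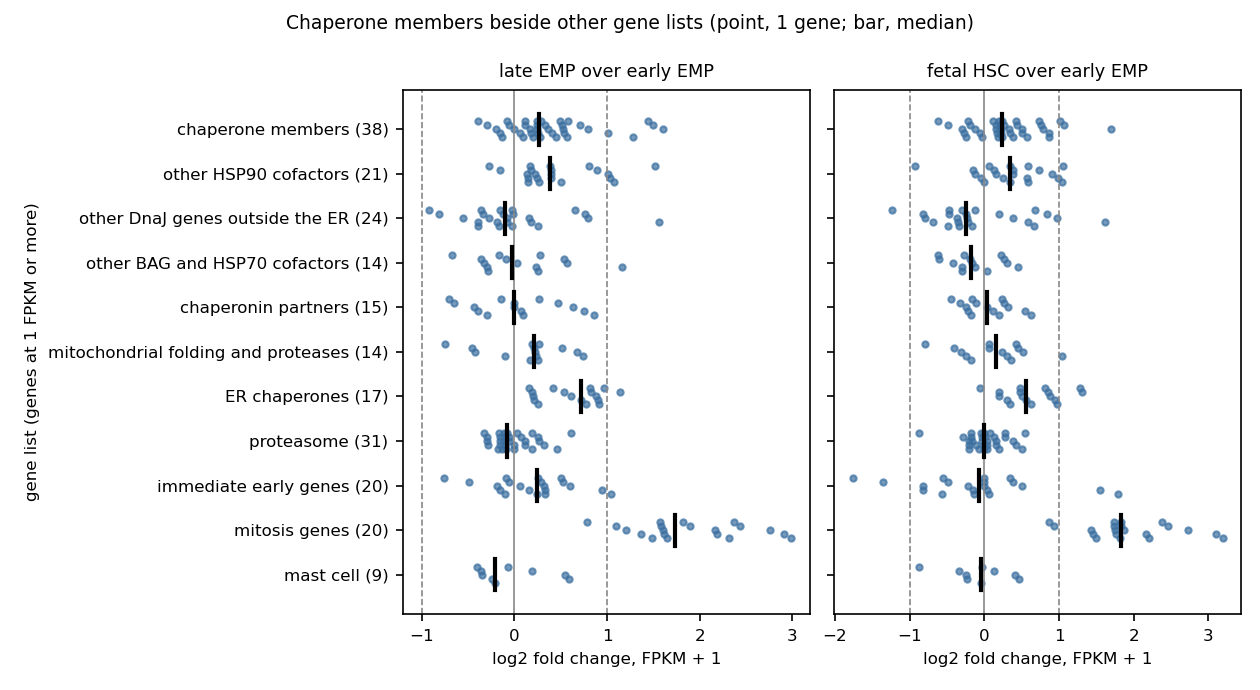
Log2 fold change over the early EMP library of each gene at 1 FPKM or more (points) in the chaperone members and other lists, with the list's median as a bar; dashed lines mark 2-fold. Medians of the members, 0.27 and 0.24, lie below those of the ER chaperones, 0.72 and 0.56, and far below those of the mitosis genes, 1.74 and 1.82.

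Other gene groups also differed between the libraries, and their part in the chaperone values was not tested. Of 20 mitosis genes, 19 and 18 were at least 2-fold higher in late and in fetal HSC over early EMP, and their summed level was 52.6, 280 and 286 FPKM. Immediate early genes, which also respond to tissue dissociation, were abundant in all libraries, summing to 28231, 30409 and 22860 FPKM, with medians of 0.25 in late over early EMP, -0.08 in fetal HSC over early EMP and -0.37 in fetal HSC over late EMP. Erythroid markers summed to 186, 15 and 13.7 FPKM over 5 genes, with Alas2 at 0 in the early EMP and fetal HSC libraries and Hbb-bt at 0 in the latter. The neutrophil markers, 3 of 5 in the table, summed to 2.60, 47.9 and 112 FPKM, with S100a8 at 0 in the late EMP library. Melanocyte markers summed to 1.59, 13.8 and 40.7 FPKM over 5 genes, with Mlana at 0 in the early EMP library, and macrophage markers to 79.3, 54.8 and 22.9 over 7. Keratinocyte, fibroblast, endothelial and dendritic markers (the last 4 of 5 in the table) each summed to at most 7.68 FPKM in any library. Of these, Krt14, Dcn and Lum were at 0 in early EMP, Krt1 and Cdh5 in late EMP and fetal HSC, and Itgax in early and late EMP. T cell markers, 4 of 5 in the table, summed to 15.9, 5.90 and 17.0 FPKM, with Cd3e at 0 in the late EMP library.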

How the data were processed

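Total RNA of sorted cells was sequenced on an Illumina HiSeq (labels' protocols). The authors deposited FPKM values in 1 table with 2 decimals, per the file headers, and its columns were matched to the 3 libraries through the labels' descriptions. The submitters' processing notes name Bowtie2, RSEM, mm10 and GRCm38. They give no versions. FPKM is a share, so abundant genes affect all others.

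Log2 fold changes of FPKM + 1 were computed over features at 1 FPKM or more in at least 1 library. A difference of at least 2-fold was counted. With 1 library per group no test was possible. The fold computation was tested on simulated data. Depth was implied from low values of genes with 1 transcript: shares of 76.9%, 81.4% and 74.5% were within 0.15 of a whole fragment, at the depth and length offset that fitted best. Counting intervals rest on it and cover counting error only. Coordinates and promoters are RefSeq's (GRCm38.p6, 39 members matched by identifier), and shared stretches were counted in GENCODE M21 transcripts. Members and lists were chosen with earlier results of these data known. Full values were set for members past 2-fold at 10 FPKM or more, the 6 most abundant, the named pairs, the heat shock factors and the extremes of TRiC, and in the other lists for up to 4 genes each. Other members were named after their values were seen. Alternatives were other pseudocounts, filters and scalings, and leaving out the unnamed regions. Software was pandas 2.3.3 with numpy 2.4.6 under Python 3.11.15, and matplotlib 3.10.9 for plots, with intervals from scipy 1.17.1.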

Additional observations from a re-analysis of the deposited data

How the results depend on the processing

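Counts of members past 2-fold and their medians were recomputed with pseudocounts of 0.1 and 5 FPKM, without a filter and with a filter at 5 FPKM, with 3 rescalings and without the unnamed regions. With a pseudocount of 5 FPKM, 1 member in place of 3 was at least 2-fold higher in fetal HSC over early EMP. With median-of-ratios scaling the members' median for fetal HSC over late EMP turned from -0.04 to 0.09, while that of all features turned from -0.10 to 0.00. With Hspa1a and Hspa1b summed as 1 gene, added after the data were seen, 0 members in place of 1 were lower in fetal HSC over late EMP. The cause was not tested, apart from that sum, which removes the gene concerned. The other 70 planned values of counts and medians kept their direction, with counts within 1.5 times and medians within 0.1 of those reported. Leaving out the unnamed regions could not change any of these values, since every member has a symbol. Of the fold changes of single members, 6 of 80 dropped below 2-fold, all given beside the gene, and none reversed. Many of the 80 could not drop. Filters and the removal of unnamed regions do not alter the fold of a single gene. Hspa8 in fetal HSC over early EMP was under 2-fold from the start. With 1 library per origin, only counting error can be set at this depth. No paired analysis was possible because each group has 1 library.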
